A study of Rattus norvegicus with 6 samples.

Results

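The 9 genes described here encode proteins of the myelin sheath made by oligodendrocytes: Mbp, Mobp, Mal, Cldn11, Cnp, Mog, Mag, Opalin and Ermn. They were taken by symbol from a table of read counts for 22601 genes, and all 9 were found. The libraries hold ventral hippocampal RNA of aged (22 months) and adult (4 months) male rats of the outbred Sprague Dawley strain. Of 10 rats per age that went through the Morris water maze, a test of spatial memory, 3 were picked at random for sequencing, which makes 6 animals with a library each. No allele, agent or transgene is named in the labels, and age is the only labelled difference between the groups.

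All 9 genes had lower mean levels in aged than in adult rats, by between 0.47 and 0.96 on the log2 scale, and none passed the test across all genes. Their median log2 fold change was -0.67, beside -0.0022 for the 14588 genes tested. In counts scaled for library depth and composition, Mbp, Cnp, Cldn11 and Mog were lower in each of the 3 aged rats than in any adult rat. For Mog this did not hold in the FPKM that the authors deposited. For the other 5 genes aged replicate 3 or 1 lay within the adult range. The difference was spread unevenly over the animals: adult replicate 1 was highest for all 9 genes, and aged replicates 1 and 2 were low. Aged replicate 3 resembled adult replicate 3 on average over the 9 genes, with 5 of them higher in aged replicate 3 and the others lower. The comparison asked how transcript levels in the hippocampus of old rats differ from those of young adults.

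Myelin is the stack of oligodendrocyte membrane that wraps axons and speeds conduction. In compact myelin the membranes are pressed together by basic proteins on their inner faces, while channels of cytoplasm remain at the edges of the sheath and next to the axon. The transcription factor MYRF switches on the genes of this programme in differentiating oligodendrocytes, together with SOX10, and is needed to keep them on in the adult brain. In the hippocampus, myelinated fibres run in the alveus and fimbria and in layers among the neurons.

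Short sequence elements were searched in the promoters of these genes, and none stood in all of the promoters available. Whether they have a part in the shared variation of the 9 transcripts between animals was not tested. Windows of 300 bases, running from 250 before to 50 after each annotated start, came from RefSeq on build GRCr8, and 8 such windows matched 7 of the genes, with 2 starts for Mbp. Mog and Ermn had no entry. MYRF is known from work in rodents to bind CTGGCAC and CTGGTAC, and these were searched on both strands. A match stood in the windows of Mag, Mal, Opalin, Cnp and Cldn11, so in 5 of 8 windows, where 2270 of all 33469 windows (6.78%) held at least 1. The stretches of 41 bases around each match, read on the strand of the gene, are given with the match in capitals. It reads CTGGCAC in Mag and Cnp, its reverse complement GTGCCAG in Mal and Opalin, and GTACCAG, the reverse complement of CTGGTAC, in Cldn11.
Mag, chr1:95291115-95291155, minus strand: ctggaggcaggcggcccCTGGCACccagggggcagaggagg
Cnp, chr10:86011363-86011403, plus strand: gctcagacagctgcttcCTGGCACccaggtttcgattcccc
Mal, chr3:135341526-135341566, minus strand: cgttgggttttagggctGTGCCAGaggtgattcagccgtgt
Opalin, chr1:249858184-249858224, minus strand: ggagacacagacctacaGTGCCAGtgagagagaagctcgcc
Cldn11, chr2:114149636-114149676, minus strand: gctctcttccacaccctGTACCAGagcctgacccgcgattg

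In Cldn11, Cnp and Mal the matches began at positions -120, -124 and -126 from the annotated start, in Mag at -94 and in Opalin at -17. The Mobp window differed in kind. It held ACAAAG, a core recognised by SOX proteins such as SOX10, 8 times on the reverse strand as CTTTGT, shown in capitals. Only 3 of the 33469 windows, this one included, held at least as many, while 18.8% held at least 1.
Mobp, chr8:128746982-128747281, plus strand: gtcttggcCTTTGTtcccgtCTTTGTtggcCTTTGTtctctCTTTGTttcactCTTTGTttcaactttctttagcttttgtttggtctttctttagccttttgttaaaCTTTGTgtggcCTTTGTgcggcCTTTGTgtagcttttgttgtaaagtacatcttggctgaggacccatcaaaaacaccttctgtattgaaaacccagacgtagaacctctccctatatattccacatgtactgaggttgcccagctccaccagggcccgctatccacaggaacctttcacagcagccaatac

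ACAAAG also stood in the windows of Cnp, Mag, Opalin and the downstream start of Mbp. The other SOX core searched, AACAAT, which 11.7% of all windows held, stood in those of Opalin and Mbp. A GC-box-type element, GGGCGG, stood in 5 of 8 windows, those of Cldn11, Cnp, Mal and Mbp, where 33.1% of all windows held it. A TATA-type element, TATAAA, stood in 0 of 8, beside 14.2% of all windows. These matches describe the letters of the annotated windows, and binding was not measured.

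**Figure D1:**
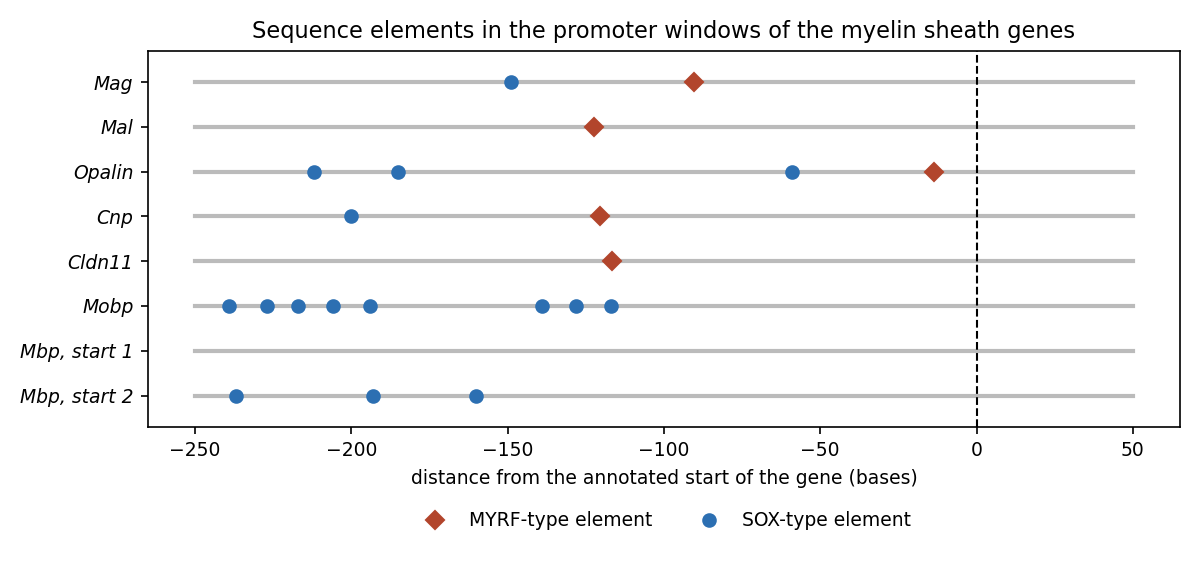
Position of MYRF-type (diamonds) and SOX-type (circles) elements in the promoter windows of the 7 genes with a sequence, on an axis of distance in bases from the annotated start (dashed line). The 5 MYRF-type elements lie upstream of the start, and the 8 SOX-type elements of Mobp fill the upstream part of its window.

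Library totals lay between 12476758 and 15400405 counts in aged rats and between 14637811 and 15689921 in adult rats. At these depths the smallest count of any of the 9 genes was 462, for Ermn in aged replicate 2, so counting error was small beside the variation between animals. Markers of hippocampal fields were present in every library, with 8 genes summed as CPM of the library total (counts scaled to a common total). The sums were 447 to 572 CPM in aged rats, and 414, 568 and 826 CPM in adult replicates 1 to 3. Adult replicate 1 thus had the lowest sum of any library. All 8 genes had log2 fold changes below 0, with a median of -0.42 and 0 at an unadjusted p under 0.05. Choroid plexus transcripts also set adult replicate 1 apart. The 9 marker genes summed to 8.94 to 76.4 CPM in aged rats, and to 2161, 52.0 and 23.3 CPM in adult replicates 1 to 3. Adult replicate 1 was also the library with the highest level of all 9 myelin genes. The part of this choroid plexus RNA, or of the low sum of field markers in the same library, in the results was not tested. The log2 fold change without that library is given below for each of the 9 genes.

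The 9 genes together held 0.546%, 0.594% and 0.793% of all counts in aged replicates 1 to 3, against 1.44%, 0.950% and 0.927% in adult replicates 1 to 3, so the groups did not overlap. Most of these counts were Mbp. Without Mbp the other 8 genes held 0.146%, 0.137% and 0.231% in aged rats and 0.345%, 0.258% and 0.209% in adult rats, and there aged replicate 3 lay above adult replicate 3. Mbp had more counts than any other gene in all 3 adult libraries and in aged replicate 3. In aged replicates 1 and 2 it ranked 3 and 2 by counts, with Apoe at the top.

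Levels from here on are CPM scaled by TMM, edgeR's correction for differences in library composition, unless FPKM is named. Among the proteins of compact myelin, Mbp encodes myelin basic protein, which joins the inner faces of the membranes. It stood at 4077, 4586 and 5416 CPM in aged replicates 1 to 3, against 10951, 6864 and 7379 CPM in adult replicates 1 to 3. Every aged rat was below every adult rat, and adult replicate 1 stood well above the other two adults. The means were 4693 ± 676 CPM in aged and 8398 ± 2226 CPM in adult rats (SD, n = 3 each), a log2 fold change of -0.84 ± 0.21 (SE) by edgeR's quasi-likelihood test. Without adult replicate 1 the log2 fold change was -0.59.

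Mobp, which encodes a smaller basic protein of the same inner face, stood at 315, 274 and 584 CPM in aged replicates 1 to 3, against 856, 589 and 518 CPM in adult replicates 1 to 3. Aged replicate 3 lay between adult replicates 3 and 2, so the groups overlapped. By FPKM it was just above adult replicate 2, with 153 against 150. The fitted log2 fold change was -0.74 ± 0.31 (SE), with -0.49 without adult replicate 1 and -1.15 without aged replicate 3. Mobp had the largest standard error of the 9 genes.

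Mal encodes a proteolipid that sorts membrane cargo and lies in compact myelin. It stood at 150, 136 and 245 CPM in aged replicates 1 to 3, against 399, 243 and 203 CPM in adult replicates 1 to 3. Aged replicate 3 was above adult replicates 2 and 3 for this gene, the only one of the 9 for which it passed adult replicate 2 in CPM. By FPKM it also passed adult replicate 2 for Mag (87.9 against 86.5) and Mobp. The fitted log2 fold change was -0.67 ± 0.30 (SE), and -0.32 without adult replicate 1.

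Cldn11 encodes claudin 11, which forms the tight junctions between the turns of the sheath. It stood at 149, 165 and 265 CPM in aged replicates 1 to 3, against 516, 311 and 296 CPM in adult replicates 1 to 3. The groups did not overlap, and this gene had the lowest fitted log2 fold change of the 9, -0.96 ± 0.28 (SE). Without adult replicate 1 the value for Cldn11 was -0.64. The span between its highest and lowest library was also the widest, 3.46-fold.

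Among the proteins of the cytoplasmic channels, Cnp encodes the phosphodiesterase that keeps these channels open. It stood at 383, 368 and 424 CPM in aged replicates 1 to 3, against 696, 647 and 503 CPM in adult replicates 1 to 3. The groups did not overlap, and the 3 aged rats lay close to each other. Cnp had the smallest standard error of the 9 genes, with a log2 fold change of -0.65 ± 0.15 (SE), and -0.54 without adult replicate 1.

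Ermn encodes ermin, a protein of the oligodendrocyte cytoskeleton that appears late in myelination. It was the least regular of the 9. It stood at 60.7, 37.1 and 59.1 CPM in aged replicates 1 to 3, against 99.3, 77.0 and 50.1 CPM in adult replicates 1 to 3, so 2 of the 3 aged rats were above adult replicate 3. The fitted log2 fold change was -0.53 ± 0.27 (SE), with -0.27 without adult replicate 1 and -0.33 without aged replicate 2.

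Among the surface proteins, Mog encodes the myelin oligodendrocyte glycoprotein of the outermost lamella, a known target of autoimmune demyelination. It stood at 83.6, 77.9 and 138 CPM in aged replicates 1 to 3, against 207, 151 and 142 CPM in adult replicates 1 to 3. The groups did not overlap in CPM, though aged replicate 3 was only just below adult replicate 3. By FPKM they did overlap, with 30.8 in aged replicate 3 and 29.5 in adult replicate 3. The log2 fold change was -0.74 ± 0.25 (SE), and -0.54 without adult replicate 1. In the GRCr8 annotation Mog overlaps Zfp57, which had 68 to 162 counts in these libraries. Whether counting used strand is not stated, so reads could have been assigned to either gene.

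Mag encodes the glycoprotein of the innermost turn that faces the axon. It stood at 226, 186 and 339 CPM in aged replicates 1 to 3, against 419, 343 and 277 CPM in adult replicates 1 to 3. Aged replicate 3 was close to adult replicate 2 and above adult replicate 3. Its log2 fold change of -0.47 ± 0.24 (SE) was the closest to 0 of the 9 genes with all 6 libraries. It was -0.30 without adult replicate 1, where Ermn was closer to 0, and -0.28 without aged replicate 2 and -0.75 without aged replicate 3.

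Opalin encodes a transmembrane glycoprotein of oligodendrocytes. It stood at 120, 126 and 169 CPM in aged replicates 1 to 3, against 256, 200 and 163 CPM in adult replicates 1 to 3. Aged replicate 3 was above adult replicate 3 by a small margin. The log2 fold change was -0.58 ± 0.20 (SE), and -0.38 without adult replicate 1. Mag overlaps a pair of long non-coding loci in the GRCr8 annotation, and Mbp and Mal overlap 1 each.

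**Figure D2:**
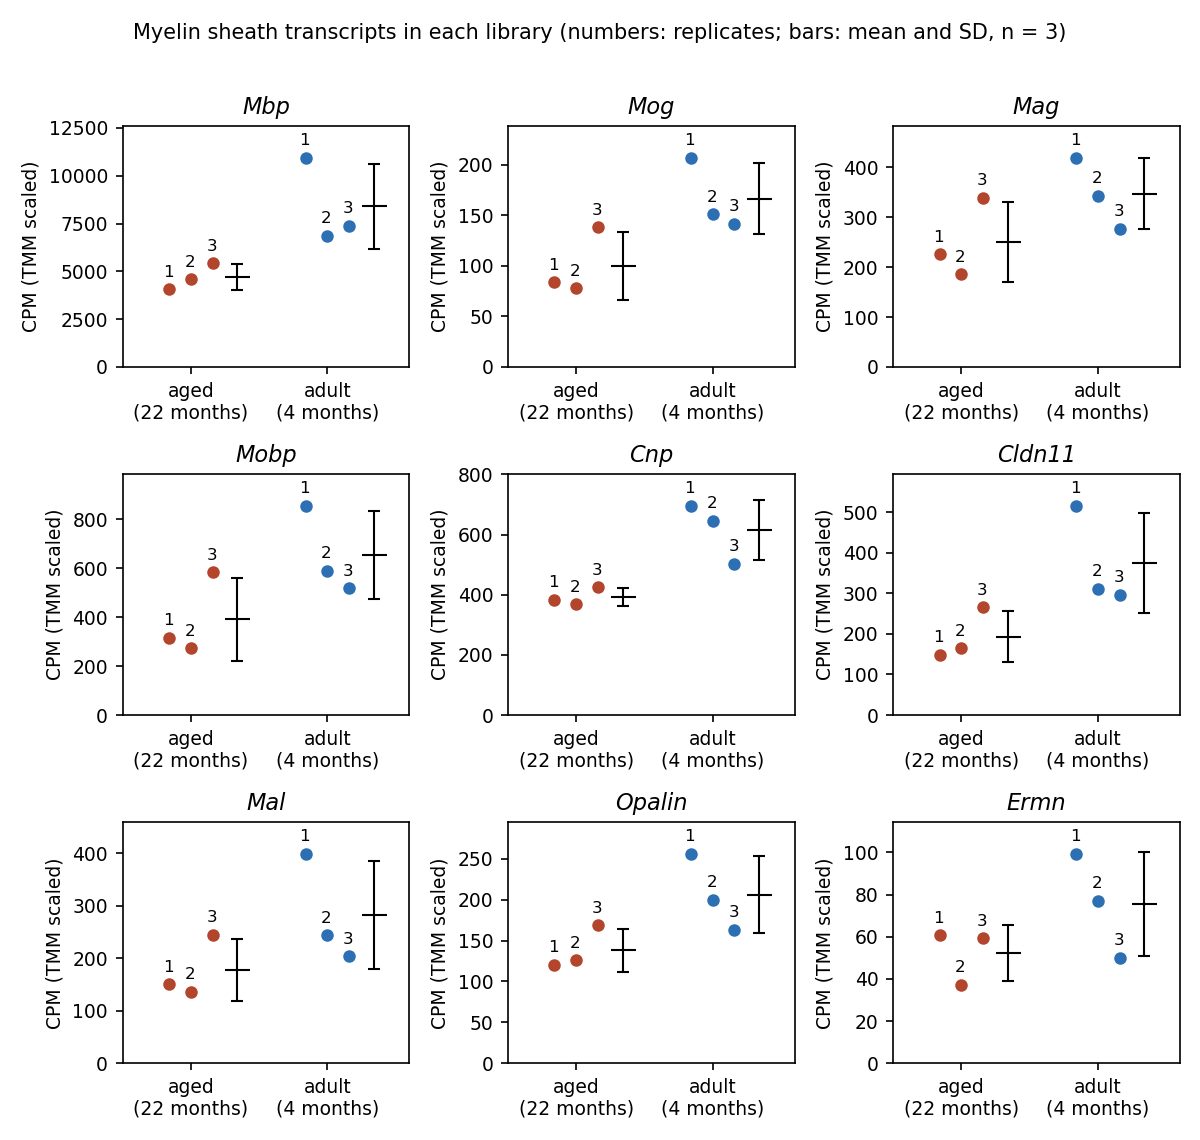
Level of each gene in TMM-scaled CPM, on axes that start at 0, with the 3 aged libraries left of the 3 adult libraries, numbered by replicate, and bars for the mean and SD (n = 3). Aged replicate 3 is the highest aged library for every gene but Ermn, and adult replicate 1 is the highest of all 6 for every gene.

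None of the 9 genes was called at an adjusted p under 0.05 (edgeR quasi-likelihood, Benjamini-Hochberg over 14588 genes), and neither was any other gene, so the background was 0%. The adjusted p was 1.00 for each of the 9. At an unadjusted p under 0.05, 6 of the 9 (Mbp, Mog, Mobp, Cnp, Cldn11 and Opalin) were lower in aged rats, beside 331 of 14588 genes (2.27%). By TMM-scaled CPM, every aged rat was below every adult rat for 4 of the 9, beside 646 genes (4.43%). Mog was among these 4 but overlapped by FPKM. The genes were chosen with earlier results of these data known, so these shares describe them and are no separate evidence. DESeq2 called Mbp and Cnp (adjusted p = 0.0334 for each), among 18 genes (0.123%) that it called lower in aged rats.

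Where the fitted changes of the 9 genes lie among all genes tested can be read from their ranks. Cldn11 was at the lowest 1.78% of all fitted log2 fold changes and Mag at the lowest 6.21%, with the other 7 between them. The 5th percentile of all genes was -0.53 and the 95th was 0.45, and 7 of the 9 genes, all but Ermn and Mag, lay below the 5th.

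**Figure D3:**
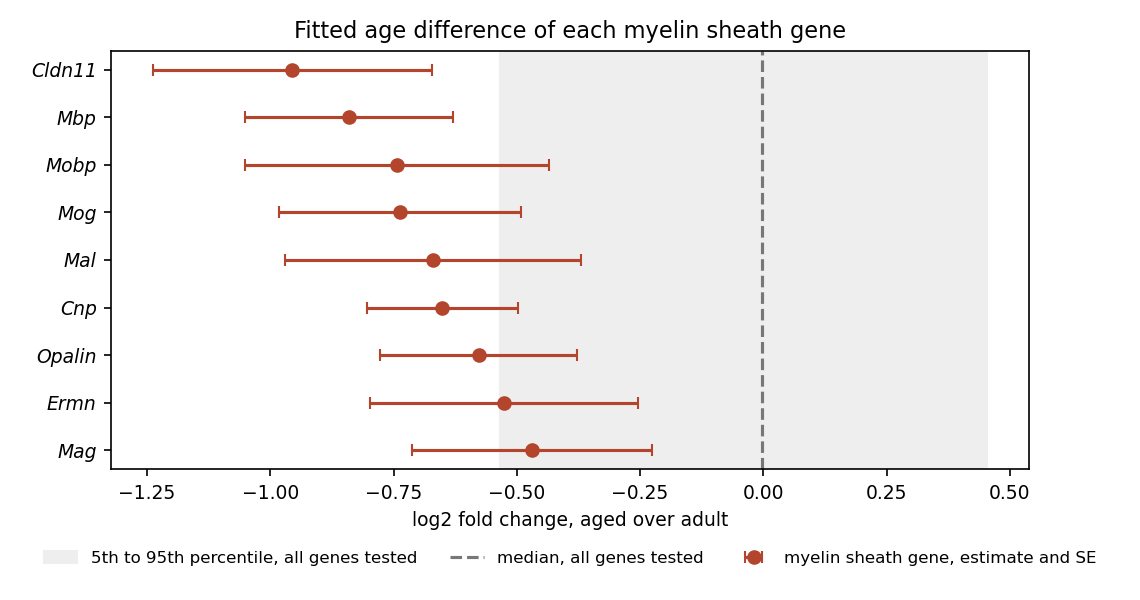
Fitted log2 fold change of each gene, aged over adult (points, with bars of 1 SE), over a band from the 5th to the 95th percentile of all genes tested and a dashed line at their median. All 9 estimates lie below 0, from -0.96 for Cldn11 to -0.47 for Mag.

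The value of 1 animal moved these figures. Without adult replicate 1 the median of the 9 genes was -0.49, and 3 genes (Mbp, Cnp and Cldn11) were at an unadjusted p under 0.05. The same 3 genes were at that level without aged replicate 1 (median -0.60) and without aged replicate 2 (median -0.53). Without aged replicate 3 the median was -0.96 and 8 genes were at that level, all but Ermn. Over the whole table edgeR called 1 gene each without adult replicate 1, 2 or 3, and it was none of the 9. In every one of the 6 fits that left out a library all 9 genes kept a log2 fold change below 0.

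The 9 genes varied together between animals. With each gene centred on its own mean log2 CPM, the average over the 9 was -0.48, -0.60 and 0.048 in aged replicates 1 to 3, against 0.73, 0.27 and 0.033 in adult replicates 1 to 3. Aged replicate 3 and adult replicate 3 therefore stood at almost the same level on this average. Single genes differed in either direction: 5 of the 9 were higher in aged replicate 3, and the others, Mbp among them, were lower. Mog followed this shared profile most closely, with a root mean square difference of 0.089, and Ermn least closely, with 0.24. Ermn was 0.47 above the shared profile in aged replicate 1 and 0.32 below it in adult replicate 3.

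**Figure D4:**
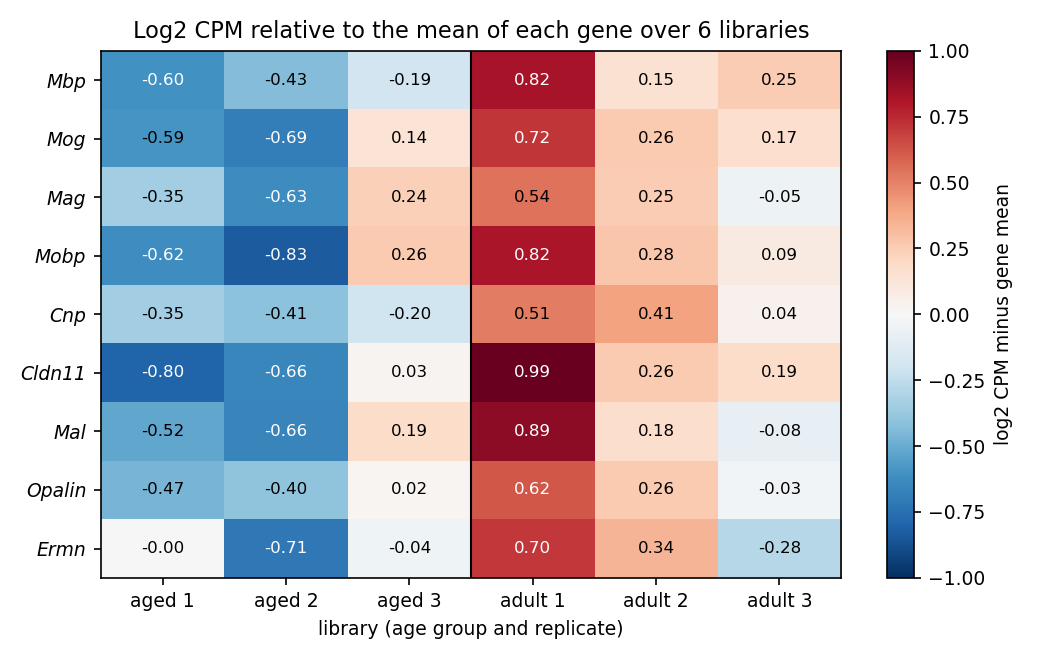
Log2 CPM of each gene (rows) in each library (columns) relative to the gene's mean over the 6 libraries, with red above and blue below that mean. Aged replicates 1 and 2 hold no value above 0, adult replicates 1 and 2 hold only values above 0, and values run from -0.20 to 0.26 in aged replicate 3 and from -0.28 to 0.25 in adult replicate 3.

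Ratios between genes of 1 library do not depend on its depth or scaling. Of the 36 pairs among the 9 genes, 3 had ratios that did not overlap between the ages. Mog over Mag was 0.370, 0.420 and 0.408 in aged replicates 1 to 3, against 0.494, 0.440 and 0.511 in adult replicates 1 to 3. Mag over Cldn11 averaged 1.31 ± 0.20 in aged and 0.950 ± 0.145 in adult rats (SD, n = 3 each). Cldn11 over Mal averaged 1.10 ± 0.11 in aged and 1.34 ± 0.10 in adult rats. Over all pairs the median absolute difference between the ages was 0.16 on the log2 scale, beside a median log2 fold change of -0.67 for the genes themselves. The 3 pairs were picked by their values, and no test was made. How many pairs of other genes separate in this way was not counted, so 3 of 36 is a description only.

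Levels can be compared between genes only per length, as the FPKM (counts scaled to library total and gene length) that the authors deposited. Mbp averaged 1935 ± 739 FPKM over the 6 libraries (SD) and led in every library. Cnp averaged 200.7 ± 56.0 FPKM, Cldn11 154 ± 72 FPKM, Mobp 133 ± 54 FPKM and Mal 101 ± 42 FPKM. Mag averaged 74.7 ± 22.2 FPKM, Opalin 64.0 ± 19.1 FPKM, Ermn 35.9 ± 12.4 FPKM and Mog 28.6 ± 10.3 FPKM. Mobp was above Mal, Mal above Mag and Opalin above Ermn in all 6 libraries. Each of the neighbours Cnp and Cldn11, Cldn11 and Mobp, Mag and Opalin, and Ermn and Mog changed places in 1 library, and the SDs of all neighbours below Mbp overlapped.

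Related genes were read from lists chosen with earlier results known. In each list 0 genes were called by edgeR, at a background of 0%, and genes at an unadjusted p under 0.05 are set beside the 2.27% of all genes that were lower at that level and the 50.5% that had a log2 fold change below 0. Of 27 other genes of the sheath and of mature oligodendrocytes tested, 22 had lower values in aged rats, 11 of them at an unadjusted p under 0.05, and the median log2 fold change was -0.38 (-0.25 without adult replicate 1). Leaving out adult replicate 1 brought the count of 11 to 6, as did leaving out aged replicate 2. It came to 7 when aged replicate 1 was left out and to 16 when aged replicate 3 was. The most abundant of them did not share a direction. Qdpr, a reductase of pterin metabolism, averaged 315 ± 81 CPM in aged and 276 ± 19 CPM in adult rats. Car2, a carbonic anhydrase, averaged 256 ± 22 CPM in aged and 332 ± 74 CPM in adult rats. Plekhb1, which encodes a membrane-associated protein, averaged 399 ± 62 CPM in aged and 511 ± 60 CPM in adult rats.

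Genes on the list of lipid enzymes had lower values in 8 of 8, with 4 at an unadjusted p under 0.05 and a median log2 fold change of -0.43 (-0.29 without adult replicate 1). The count of 4 was 2 without aged replicate 2 and 6 without aged replicate 3. Without adult replicate 1 it was 3, and 7 of 8 genes had lower values. Ugt8, which makes galactosylceramide, stood at 65.7, 55.7 and 70.3 CPM in aged replicates 1 to 3, against 152, 115 and 91.8 CPM in adult replicates 1 to 3, and the groups did not overlap. Enpp2 stood at 89.5, 52.9 and 90.6 CPM in aged rats and at 411, 133 and 102 CPM in adult rats. Choroid plexus also expresses Enpp2, and its highest value was in adult replicate 1, the library with the choroid plexus transcripts. Degs1, a ceramide desaturase, averaged 113 ± 9 CPM in aged and 118 ± 11 CPM in adult rats.

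Of 10 regulators of the myelin programme, such as the transcription factors that drive it, all 10 had lower values, 2 of them (Olig1 and Olig2) at an unadjusted p under 0.05, and the median log2 fold change was -0.36 (-0.24 without adult replicate 1). The count of 2 was 0 without aged replicate 1, aged replicate 2 or adult replicate 1, 1 without adult replicate 2, and 5 without aged replicate 3. Lower values were found for 9 of the 10 regulators without aged replicate 2, and likewise without adult replicate 2. Olig1 stood at 115, 127 and 143 CPM in aged replicates 1 to 3, against 189, 169 and 137 CPM in adult replicates 1 to 3. Sox10 stood at 57.6, 59.0 and 80.1 CPM in aged rats and at 99.0, 89.8 and 66.2 CPM in adult rats. Sequences of the MYRF type stood in 5 of the promoters above, where binding was not measured. Myrf itself stood at 93.2, 81.0 and 170 CPM in aged rats and at 161, 137 and 105 CPM in adult rats. Its highest value of all was in aged replicate 3, and its log2 fold change was -0.22 ± 0.29 (SE).

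Genes of newly formed oligodendrocytes had lower values in 7 of 7 tested (median -0.29, and -0.24 without adult replicate 1), with Bmp4 and Rras2 at an unadjusted p under 0.05. Without any 1 of the aged replicates, or without adult replicate 1, 1 gene was at that level. The 7 of 7 with lower values became 6 without adult replicate 1 and 5 without adult replicate 2. Fyn, a kinase of early myelination that neurons also express, averaged 162 ± 10 CPM in aged and 181 ± 11 CPM in adult rats. Rras2, a small GTPase, averaged 22.2 ± 1.2 CPM in aged and 27.4 ± 1.4 CPM in adult rats. Tmem163, a zinc transporter, averaged 12.5 ± 2.6 CPM in aged and 15.3 ± 7.8 CPM in adult rats. Precursor genes were close to 0: 5 of 8 had lower values, with a median of -0.10, which became 0.18 without adult replicate 2. Their summed level was 500 to 561 CPM in aged and 442 to 678 CPM in adult rats. Ptprz1, a phosphatase of precursors and astrocytes, averaged 212 ± 6 CPM in aged and 231 ± 52 CPM in adult rats. Cspg5, a proteoglycan of precursors, averaged 161 ± 30 CPM in aged and 170 ± 36 CPM in adult rats. C1ql1, a secreted protein of the C1q family, averaged 27.1 ± 7.8 CPM in aged and 32.8 ± 3.8 CPM in adult rats.

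Of 17 genes for axonal partners of the sheath, 6 had lower values and 0 were at an unadjusted p under 0.05, with a median of 0.062. This split turned on single libraries: 11 had lower values without aged replicate 1 (median -0.046) and 3 without aged replicate 2 (median 0.19). Without aged replicate 3 it was 10, without adult replicate 1 it was 9, and both medians were just below 0. Nefl, the light neurofilament chain, averaged 558 ± 145 CPM in aged and 527 ± 70 CPM in adult rats. Nefm, the medium chain, averaged 334 ± 104 CPM in aged and 296 ± 23 CPM in adult rats. Cntn1, an adhesion protein of the paranode, averaged 508 ± 47 CPM in aged and 487 ± 49 CPM in adult rats. Of 10 genes for Nogo, its receptors and their effectors, through which myelin proteins such as Mag restrain axon growth, 3 had lower values and 0 were at an unadjusted p under 0.05 (median 0.070). Rhoa, the effector GTPase, averaged 274 ± 21 CPM in aged and 313 ± 10 CPM in adult rats. Rtn4, which encodes Nogo, averaged 606 ± 99 CPM in aged and 636 ± 83 CPM in adult rats. Ptprs, a receptor phosphatase that binds inhibitory proteoglycans, averaged 594 ± 77 CPM in aged and 570 ± 44 CPM in adult rats.

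**Figure D5:**
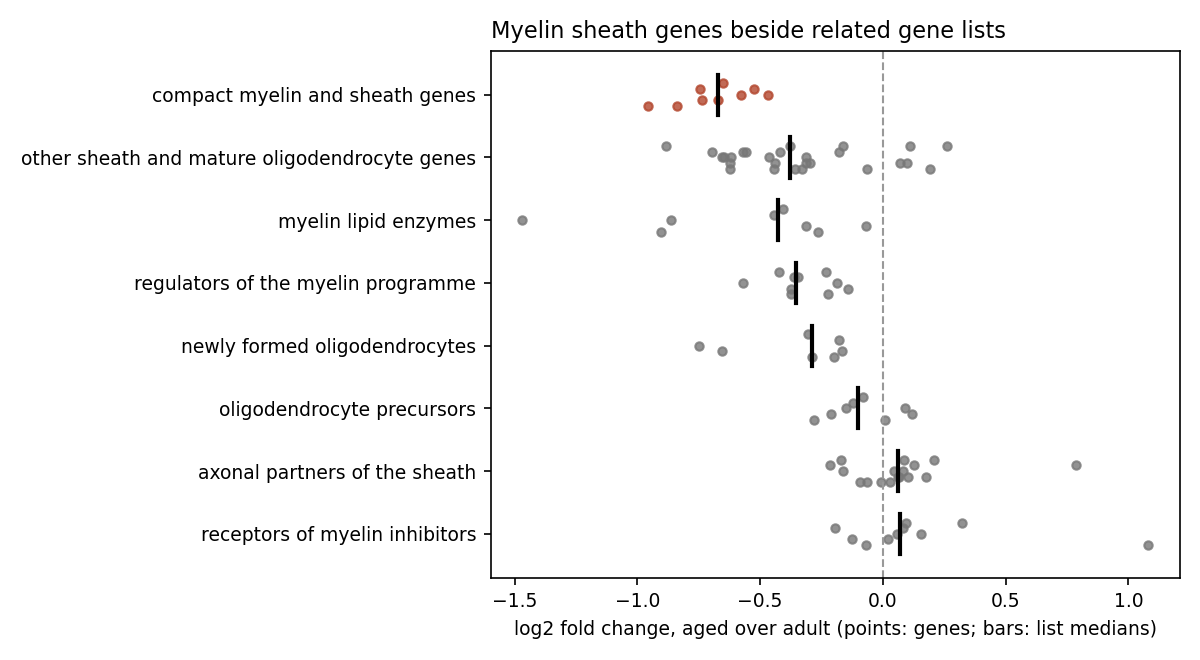
Log2 fold change, aged over adult, of each gene in the myelin sheath set (top row) and in 7 related lists, with a bar at each median. Medians run from -0.67 for the sheath genes to 0.070 for the receptors of myelin inhibitors.

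Markers of other cells are given beside these results. Summed markers of astrocytes were 3397 to 4081 CPM of the library total in aged and 3230 to 4335 CPM in adult rats. Those of neurons were 6110 to 7835 CPM in aged and 6233 to 6723 CPM in adult rats. Among neuronal markers Slc17a7 and Rbfox3 were lowest in adult replicate 1, at 681 and 31.4 CPM (TMM scaled), and the others were not. Among markers of hippocampal fields Wfs1, C1ql2 and Tdo2 were lowest in that library, and the others were not. Wfs1 stood there at 35.0 CPM (TMM scaled), against 224 and 233 CPM in adult replicates 2 and 3. Microglial markers summed to 265 to 373 CPM in aged and 211 to 300 CPM in adult rats. Endothelial markers summed to 182 to 258 CPM in aged and 230 to 331 CPM in adult rats. By fitted log2 fold change, 6 of 6 endothelial genes (median -0.39), 6 of 8 of astrocytes (-0.095), 2 of 8 of neurons (0.13) and 1 of 8 of microglia (0.16) were below 0. Of choroid plexus genes, 6 of 6 tested were below 0 (median -2.53), with 2 at an unadjusted p under 0.05 (edgeR). The genes of hippocampal fields, endothelium and choroid plexus were thus below 0 throughout, as the 9 myelin genes were. The part of these other genes in the results was not tested. Among genes of Schwann cells, which would mark peripheral nerve, Pmp22 stood at 37.5, 23.9 and 35.7 CPM (TMM scaled) in aged replicates 1 to 3, against 46.3, 43.2 and 49.1 CPM in adult replicates 1 to 3, and other cells express it too. Prx, a gene of Schwann cell myelin, stood between 1.69 and 2.13 CPM in aged and between 1.87 and 3.92 CPM in adult rats, and Ncmap had 0 counts in 4 of the 6 libraries. Markers of thalamus, neocortex and striatum summed to 57.4 to 72.6, 186 to 202 and 26.6 to 57.1 CPM in aged rats, and to 61.4 to 77.8, 176 to 213 and 18.1 to 53.7 CPM in adult rats. How much white matter each dissection held was not tested, and in bulk tissue fewer oligodendrocytes and less myelin RNA in each cannot be told apart.

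The genes with the profile most like that of the 9, by root mean square difference over the 6 libraries among 13107 candidates, included other oligodendrocyte genes. Candidates were genes outside the 9 with a mean of at least 1 CPM. Symbols that are locus identifiers or date-like names were left out. Lpar1, a lysophosphatidic acid receptor, was nearest, with a difference of 0.086, and Prr18 followed with 0.098. Then came Zic1, Prrg1, Ndufa10l1 and Gal, with differences of 0.099 to 0.11, where the median candidate differed by 0.50. Lpar1 stood at 46.3, 48.7 and 71.8 CPM in aged replicates 1 to 3, against 125, 78.4 and 67.2 CPM in adult replicates 1 to 3. Among the 50 nearest genes, 13 were on the 7 related lists, axonal partners and inhibitor receptors included, which hold 0.656% of all candidates. Zic1 and Gal were low, with means of 4.88 and 1.07 CPM in aged and 7.21 and 1.75 CPM in adult rats.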

How the data were processed

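RNA-seq of 6 libraries, 3 aged and 3 adult rats, was analysed from tables the authors deposited. Counts are raw counts per gene symbol, as deposited by the authors, and FPKM is the authors' value, found to equal each count scaled by the library total and 1 fixed length per gene. Per the submitters' processing notes, the genome build was Rnor_6.0. The sources used here do not give the aligner, the counting program or the strand setting. Aged was compared with adult, with age as the only term, by edgeR's quasi-likelihood F test (edgeR 4.0.16, R 4.3.3), two-sided, after filterByExpr (14588 genes) and TMM scaling, with Benjamini-Hochberg adjustment over all genes and calls at an adjusted p under 0.05. Standard errors were derived from the F statistic. Log2 CPM used a prior count of 2. DESeq2 1.42.0 and limma 3.58.1 gave alternatives, and figures were drawn with matplotlib 3.10.9. Scripts were tested on simulated data. The genes, lists, tests and alternatives were chosen with earlier results of these data known. Besides the 9 genes, the text names the 3 genes of each related list with the highest mean FPKM and the 6 nearest profiles. Bmp4, Olig2, Apoe, Zfp57, Prx, Ncmap, Pmp22, Slc17a7, Rbfox3, Wfs1, C1ql2 and Tdo2 were named after their values were seen. Same-numbered rats were not paired by the labels. Gene names, overlaps and promoters came from the GRCr8 annotation, another assembly than that of the counts. Totals of 12476758 to 15689921 counts leave variation between 3 animals a group as the limit on precision. Some Schwann cell results are not reported here.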

Additional observations from a re-analysis of the deposited data

How the results depend on the processing

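Across 18 alternative fits, all drawn from the same 6 libraries, the 9 genes kept a log2 fold change below 0 in all 162 estimates (1 per gene and fit). Of these, 2 passed the threshold where the original did not: DESeq2 called Mbp (-0.83) and Cnp (-0.64). DESeq2 called 31 genes in all and 2 of the 9, and limma on log2(FPKM + 1) called 2 genes and 0 of the 9. Leaving out each library in turn gave 0 to 1 genes called over the whole table, 0 of the 9, 3 to 8 of the 9 at an unadjusted p under 0.05 and a median of -0.96 to -0.49. The precursor list's median ranged from -0.17 (without adult replicate 3) to 0.18 (without adult replicate 2) over these fits, chosen for the lists after seeing the data, and the cause was not tested. With the replicate number as a block (replicate block), 0 genes were called, 6 of the 9 were at an unadjusted p under 0.05 and their median was -0.66. Deviations of same-numbered rats correlated across genes at -0.015, -0.057 and 0.087, and those of differently numbered rats at -0.12 to 0.12. With 3 rats a group these values cannot show whether the animals were paired. Depth is no limit for these genes, while 3 rats a group is.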
